A study of Mus musculus with 16 samples.

Results

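Prefrontal cortex RNA from APC cKO mice was compared with that from APC/β-cat cKO mice. Both lines lack Apc in the same neurons, and the APC/β-cat cKOs also lack Ctnnb1, the gene of β-catenin (β-cat). The comparison holds 8 of the 16 libraries of the series, 4 per genotype, and its libraries were chosen by the genotype in their labels. APC cKOs carry APC fl/fl, with loxP sites around exons 11 and 12, and the CamKIIα-Cre-93 transgene. APC/β-cat cKOs carry the same APC fl/fl alleles and the same Cre, and also ctnnb1 fl/fl, with loxP sites around exons 2 and 6. By the study's description this Cre acts mainly in excitatory neurons of the forebrain and is fully active within the first weeks after birth, and recombination in the other cells of the cortex was not measured here. The mice were 2 to 3 months old and of both sexes. The other 8 libraries are 4 Cre-negative littermate controls, pooled from all lines, and 4 β-cat cOEs, in which 1 Ctnnb1 allele has a floxed exon 3. They entered the estimate of the spread and are quoted for reference. The labels do not say that each library is a separate animal, so p-values measure the spread between these libraries.

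In the canonical Wnt pathway, APC is a scaffold of the complex that phosphorylates β-cat and marks it for degradation. When the complex fails or a Wnt ligand inhibits it, β-cat builds up, enters the nucleus and turns on genes with TCF/LEF factors, among them several inhibitors of the pathway itself. β-cat is also part of cadherin adhesion at the synapse, and APC binds microtubules. The comparison bears on which expression differences that go with the loss of Apc need β-cat. A gene can also differ between the lines where only the APC/β-cat cKOs depart from controls.

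The floxed segment of Ctnnb1 is shown in sequence because it sets what the gene values can see. Ctnnb1 lies on the plus strand of chromosome 9 in mm10. By GENCODE its transcript Ctnnb1-201 has 15 exons, 3623 bases and 781 codons. Exons 2 to 6 run from 120950173 to 120951787 and hold 984 exon bases, 27.2% of the transcript. They hold the first 936 coding bases, which is 312 codons and 39.9% of the coding sequence. The first 10 codons span the junction of exons 2 and 3 (chr9:120950221-120950538), with the start codon in capitals. Codons 32 to 46 lie in exon 3 (chr9:120950602-120950646), with the codons of Ser33, Ser37, Thr41 and Ser45, the phosphorylation sites of the degradation signal, in capitals. The first 10 codons left after the deletion, 313 to 322, lie at the start of exon 7 (chr9:120952859-120952888). The next in-frame ATG after the deletion is codon 328.
Ctnnb1 codons 1 to 10: ATGgctactcaagctgacctgatggagttg
Ctnnb1 codons 32 to 46: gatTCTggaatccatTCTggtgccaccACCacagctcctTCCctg
Ctnnb1 codons 313 to 322: ctcatcattctggccagtggtggaccccaa

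Apc, the targeted gene that both lines share, was low in both. Its value, in fragments per kilobase of transcript scaled to the mapped total of the library (FPKM), was 17.1, 10.8, 7.85 and 10.9 in the 4 APC cKO libraries. In the 4 APC/β-cat cKO libraries it was 10.5, 12.2, 10.6 and 6.80 FPKM, and in controls it was 43.9 ± 4.21 FPKM (SD, n = 4). The groups overlapped, APC cKO replicate 1 was the highest, and all 8 values lay under the lowest control at 40.8 FPKM. The log2 difference, APC cKO minus APC/β-cat cKO on log2(FPKM + 0.1), was 0.19 (standard error 0.20, limma adjusted p = 0.755; exact permutation p = 0.514). Without APC cKO replicate 1 it was -0.01.

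Ctnnb1 was at 182, 157.3, 166 and 176 FPKM in APC cKOs and at 155, 156, 151 and 156.7 FPKM in APC/β-cat cKOs. The lowest APC cKO library lay just over the highest APC/β-cat cKO library, so the groups did not overlap, but the gap between the means was small. The log2 difference was 0.14 (standard error 0.05, adjusted p = 0.295), and the exact two-sided permutation p was 0.0286, the smallest that 4 libraries against 4 allow. Controls were at 160 ± 4.54 FPKM. The deposited value is 1 number per gene, so it does not show whether exons 2 to 6 are in the transcripts, and cells without Cre add full-length transcripts to it. At the protein level, the study reports from immunoblots of prefrontal cortex that β-cat was raised in APC cKOs and strongly reduced in APC/β-cat cKOs, relative to controls.

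From 5726 to 6063 genes were listed at 0 FPKM in APC cKOs and from 5959 to 6649 in APC/β-cat cKOs, and the files give no fragment counts, so the depth is unknown. APC/β-cat cKO replicate 4 had the most genes at 0 of the 16 libraries (6649) and the highest sum of FPKM (496015, against 452831 to 477840 in the others). By Xist and the Y-linked genes Ddx3y, Eif2s3y, Kdm5d and Uty, APC cKO replicate 1 and 1 control were female and the other 14 libraries were male. Markers of excitatory neurons were high throughout, with Slc17a7, the vesicular glutamate transporter, at 395 to 521 FPKM in the 8 libraries. Markers of striatal projection neurons and of ependyma, which a cortical dissection would mostly leave out, varied several-fold within both groups. The summed level of the 15 striatal markers was 176 to 689 FPKM in APC cKOs and 169 to 486 FPKM in APC/β-cat cKOs. In bulk tissue, fewer cells of a type and less RNA per cell cannot be told apart.

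Of 13978 genes tested, 30 differed at a limma adjusted p under 0.05, which is 0.215% of those tested. APC cKOs were higher in 13 (0.093%) and lower in 17 (0.122%). At an unadjusted p under 0.05 the count was 1437 (10.3%), with 580 higher (4.15%) and 857 lower (6.13%) in APC cKOs. The median log2 difference over all genes was -0.0008. In the 30 genes the 4 APC cKO values did not overlap the 4 APC/β-cat cKO values, a separation that 767 genes showed (5.49%). Their differences ranged in size from 0.27 to 2.07 on the log2 scale, and 9 were of at least 1. Against the same controls, 6 genes differed in APC cKOs (0.0429%) and 29 in APC/β-cat cKOs (0.207%), and both sets of values share those control libraries. Of the 30 genes, 0 were among those 6 and 8 were among those 29. The APC/β-cat cKOs lay further from controls than the APC cKOs in 19 of the 30, and the APC cKOs did in 11.

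The count of 30 depended on single libraries. It was 10 without APC/β-cat cKO replicate 2, 11 without replicate 4, 17 without replicate 3, 18 without APC cKO replicate 1 and 14 without APC cKO replicate 4. The genes higher in APC cKOs were then 5, 6, 9, 10 and 7, and those lower were 5, 5, 8, 8 and 7. Without β-cat cOE replicate 4, control replicate 2 or control replicate 3, 11 were higher and 11 lower. With quantile normalization 12 were higher and 10 lower, and with male libraries only the counts were 8 and 9. All 30 kept their direction under every alternative that gave a value, and 5 stayed past the adjusted threshold in every alternative fit in which they were tested, among them Wwox, Fut10 and 2010315B03Rik. Ly6a, Tti2 and 3000002C10Rik joined those 5 in staying past it when any 1 of the 16 libraries was left out. The least stable calls were Nme6, Dusp26 and Nop10, past the threshold in 5 of 28 alternatives, Pdk4 and Rbfa in 6, Car4 in 8, Stmn4 in 9, Ctla2a in 10 and Krt12 in 11.

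**Figure D1:**
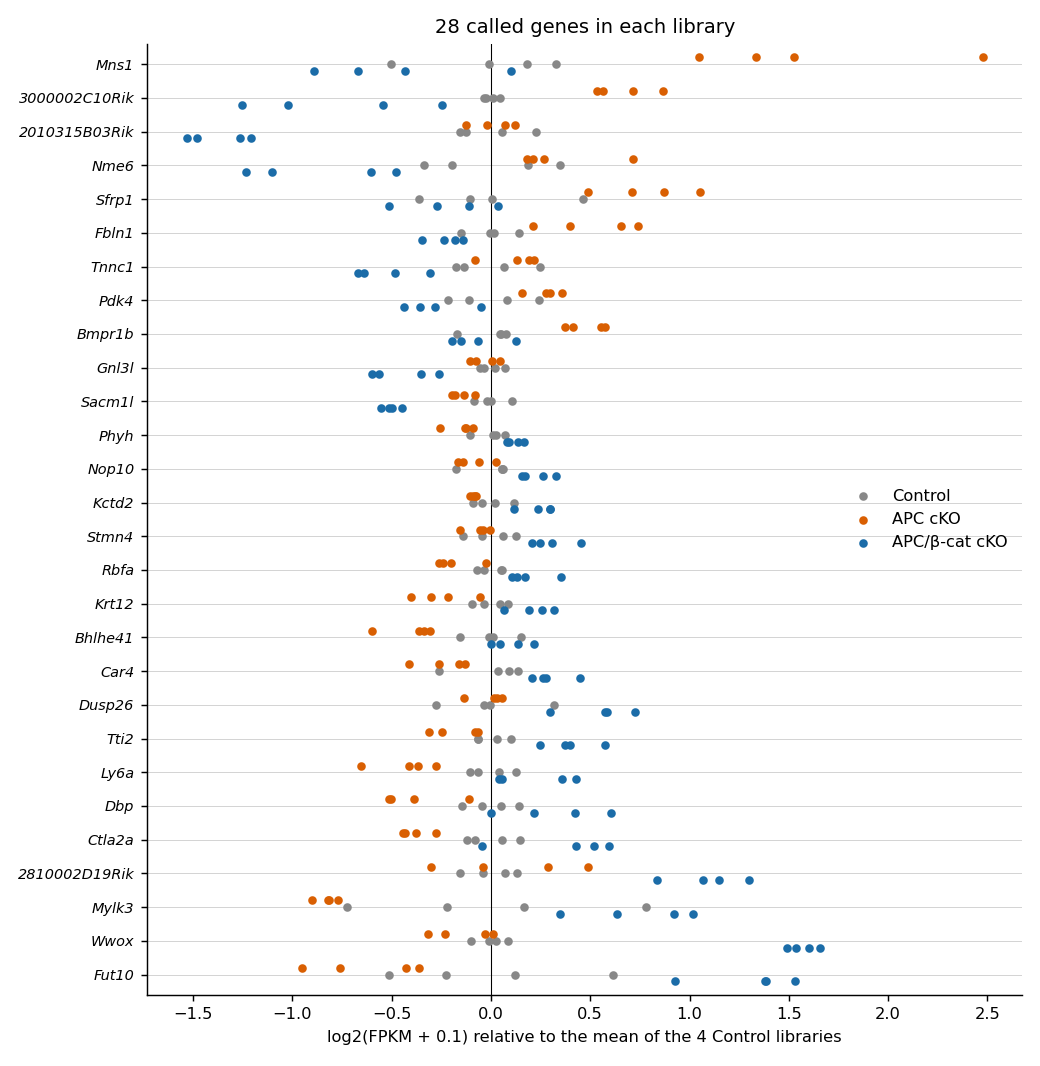
Each row is 1 of 28 genes called between the 2 groups (adjusted p under 0.05), and each point is 1 library, on log2(FPKM + 0.1) relative to the mean of the 4 control libraries. Orange and blue points do not overlap in any row, and the rows run from Mns1, higher in APC cKOs by 2.07, to Fut10, lower by 1.93.

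Among the 13 genes that were higher in APC cKOs, 7 lie on chromosome 9, and 6 of these lie within 15 Mb of Ctnnb1. That window holds 206 tested genes, 1.47% of all, and 2.91% of them were called, all of them higher in APC cKOs. At an unadjusted p under 0.05, 27 genes of the window were higher and 11 lower, together 18.4% of it, beside 10.3% of all genes. Elsewhere on chromosome 9, 1 of 599 tested genes was called (0.167%), and 13.9% had an unadjusted p under 0.05. Within 15 Mb of Apc on chromosome 18, whose floxed allele both lines share, 0 of 197 were called by limma. There 24 genes (12.2%) had an unadjusted p under 0.05. With only these 8 libraries in the fit, 3 genes near Ctnnb1 were called in place of 6. Every APC/β-cat cKO library carries the floxed Ctnnb1 alleles and no APC cKO library does. For these genes the loss of β-cat and any difference in the DNA linked to the alleles therefore cannot be told apart. The groups are also separate mouse lines. For called genes elsewhere, those of chromosome 8 included, the loss of β-cat and other differences between the lines cannot be told apart either.

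The transcript 2010315B03Rik, 3.36 Mb beyond Ctnnb1 from 124291804 to 124312694, was at 6.63, 7.32, 6.15 and 7.05 FPKM in APC cKOs. It was at 2.74, 2.26, 2.85 and 2.35 FPKM in APC/β-cat cKOs, so every APC cKO value was over every APC/β-cat cKO value. The mean was 2.66-fold higher, with a log2 difference of 1.38 (standard error 0.10, adjusted p = 4.40e-06). Controls were at 6.76 ± 0.851 FPKM and β-cat cOEs at 7.06 ± 0.629 FPKM, close to the APC cKO mean of 6.79 ± 0.509 FPKM. Sacm1l, a phosphoinositide phosphatase 2.61 Mb beyond Ctnnb1, was at 36.1 ± 1.31 FPKM in APC cKOs and 28.2 ± 0.898 FPKM in APC/β-cat cKOs, a difference of 0.36 (standard error 0.06, adjusted p = 0.0134). Its control mean of 40.05 ± 2.19 FPKM was over both.

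On the other side of Ctnnb1, at 11.1 Mb, lie 3000002C10Rik and Nme6, a member of the nucleoside diphosphate kinase family, 1.4 kb apart. 3000002C10Rik was at 2.32, 2.64, 2.38 and 2.95 FPKM in APC cKOs and at 0.601, 1.31, 1.05 and 0.723 FPKM in APC/β-cat cKOs. It was 2.79-fold higher in APC cKOs (log2 difference 1.44, standard error 0.19, adjusted p = 0.00332), and its controls, at 1.57 ± 0.042 FPKM, lay between the groups. Nme6 was higher by 1.20 (standard error 0.23, adjusted p = 0.0469), with APC cKO replicate 1 at 4.61 FPKM and the other 3 APC cKOs between 3.16 and 3.36 FPKM. Because the genes adjoin, reads of one could be counted for the other.

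Other genes of the window came near the threshold without passing it, in both directions, and they were picked after their values were seen. Vill, a villin-like actin regulator 1.88 Mb from Ctnnb1, was at 0.338 ± 0.345 FPKM in APC cKOs and 1.99 ± 0.261 FPKM in APC/β-cat cKOs, with a log2 difference of -2.56 and an adjusted p of 0.0919. Acaa1a, a peroxisomal thiolase 1.60 Mb away, had a log2 difference of -0.76 with an adjusted p of 0.0858. Epm2aip1, 9.67 Mb away, was at 33.8 ± 1.22 FPKM in APC cKOs and 24.04 ± 4.47 FPKM in APC/β-cat cKOs, with a log2 difference of 0.51 and an adjusted p of 0.059 (0.0216 without APC/β-cat cKO replicate 1 and 0.0454 without replicate 3, and up to 0.224 in other alternatives).

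**Figure D2:**
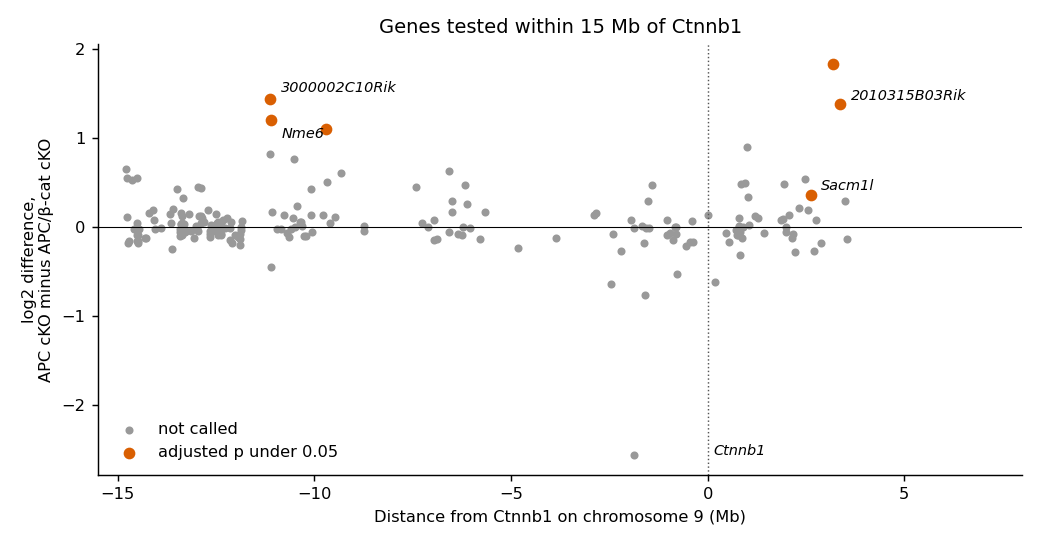
Log2 difference, APC cKO minus APC/β-cat cKO, of the 206 genes tested within 15 Mb of Ctnnb1, against distance from Ctnnb1 in Mb. The 6 called genes, in orange, all lie over 0, and most other points lie near 0.

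Farther away on chromosome 9, from 72438529 to 72491959, Mns1, which encodes a protein of cilia and sperm flagella, had the largest difference of all called genes. It was at 2.45, 2.81, 5.52 and 1.99 FPKM in APC cKOs and at 0.650, 0.982, 0.535 and 0.446 FPKM in APC/β-cat cKOs. APC cKO replicate 3 was the highest, and the lowest APC cKO library was over all APC/β-cat cKO libraries and over the highest control at 1.17 FPKM. β-cat cOEs were at 2.103 ± 0.913 FPKM. The difference was 2.07 on the log2 scale (standard error 0.33, adjusted p = 0.0138). The summed level of 14 ependyma and choroid plexus markers (11 tested) was also highest in APC cKO replicate 3, at 57.5 FPKM. It was 10.4 to 38.1 FPKM in the other 3 APC cKOs and 10.5 to 37.4 FPKM in APC/β-cat cKOs. Mns1 was at 0.982 FPKM in APC/β-cat cKO replicate 2, with 37.4 FPKM of these markers. It was at 2.81 FPKM in APC cKO replicate 2, with 10.4 FPKM of them. The part of ependymal cells in the Mns1 difference was not tested.

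Of the 17 genes that were lower in APC cKOs, 5 lie on chromosome 8, which holds 5.20% of the tested genes. Wwox, which encodes a WW domain oxidoreductase known as a tumour suppressor and spans a common fragile site, had the smallest p-value of the comparison. It was at 9.36, 10.8, 11.1 and 8.82 FPKM in APC cKOs and at 33.6, 32.1, 31.2 and 35.0 FPKM in APC/β-cat cKOs. All 4 APC/β-cat cKO libraries stood at about the same high level, and the mean of 32.97 ± 1.67 FPKM was 3.29 times that of APC cKOs at 10.02 ± 1.11 FPKM. The log2 difference was -1.71 (standard error 0.08, adjusted p = 3.73e-09). Controls were at 11.04 ± 0.597 FPKM and β-cat cOEs at 9.76 ± 0.630 FPKM, so APC/β-cat cKOs alone among the 4 genotypes were high. Wwox lies from 114439652 to 115352712, on another chromosome than the floxed genes.

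Dusp26, Tti2 and Fut10 lie close together on chromosome 8, from 31089662 to 31261483, with Rnf122 between the first pair. Fut10, of the fucosyltransferase family, was at 0.855, 0.563, 0.657 and 0.898 FPKM in APC cKOs and at 2.34, 3.26, 3.61 and 3.24 FPKM in APC/β-cat cKOs. The lowest APC/β-cat cKO value was over the highest APC cKO value, and the difference was -1.93 (standard error 0.21, adjusted p = 3.41e-04). Controls were at 1.24 ± 0.463 FPKM and β-cat cOEs, which keep APC and have a stabilized β-cat, at 2.31 ± 0.183 FPKM, between controls and APC/β-cat cKOs. Tti2, a partner of the TEL2 complex that stabilizes PI3K-like kinases, differed by -0.58 (standard error 0.08, adjusted p = 0.00631). Dusp26, a dual-specificity phosphatase of brain and muscle, was at 31.1 ± 1.82 FPKM in APC cKOs and 45.9 ± 5.53 FPKM in APC/β-cat cKOs (log2 difference -0.55, adjusted p = 0.0481).

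Within 1 Mb of Fut10, 3 of 6 tested genes were called and all 3 were lower in APC cKOs, a window picked after the calls were seen. Mak16, which shares its listed position with Tti2, had a log2 difference of -0.26 (adjusted p = 0.281), and Rnf122 and Nrg1 had differences of 0.03 and 0.24. Reads of the overlapping pair could be split between them. Mylk3, a myosin light chain kinase of heart muscle elsewhere on chromosome 8, was low in all libraries, with 0.377 ± 0.0182 FPKM in APC cKOs and 1.33 ± 0.288 FPKM in APC/β-cat cKOs (difference -1.56, standard error 0.26, adjusted p = 0.0187). The log2 difference understates the change of such low genes.

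**Figure D3:**
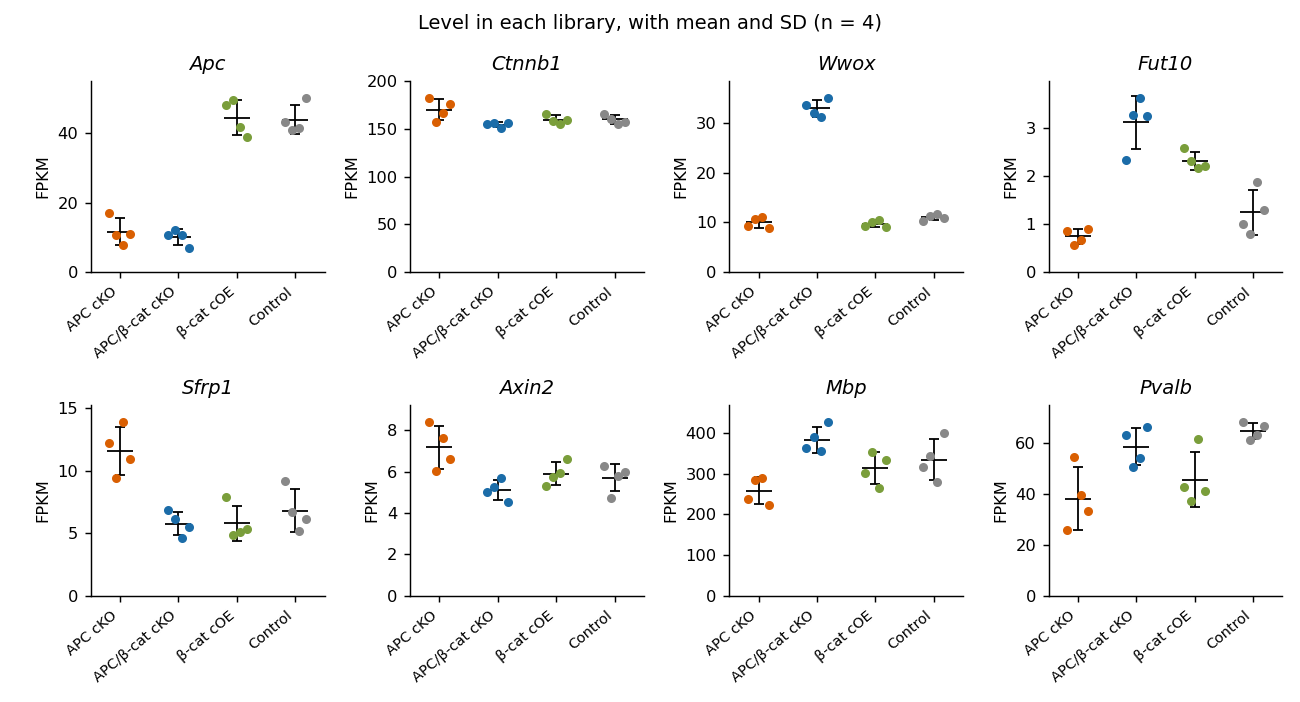
FPKM of 8 genes in each of the 4 libraries of each genotype, with the mean and SD as black marks and every axis starting at 0. Wwox stands high in APC/β-cat cKOs only, Sfrp1 in APC cKOs only, and Apc is low in both lines that lack it.

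In the Wnt pathway, Sfrp1, a secreted inhibitor that binds Wnt ligands, was the only gene of the 22 lists to pass the adjusted threshold. Sfrp1 is also 1 of the 6 called genes of chromosome 8, where it lies from 23411502 to 23449632. It was at 12.2, 9.38, 13.9 and 10.9 FPKM in APC cKOs and at 6.82, 6.14, 4.63 and 5.49 FPKM in APC/β-cat cKOs. Every APC cKO library was over every APC/β-cat cKO library and over the highest control, at 9.21 FPKM. The mean was 2.01-fold higher, with a log2 difference of 0.995 (standard error 0.18, adjusted p = 0.0396), and 14 alternative fits left it past the threshold while 14 did not. Of the 38 tested ligands, receptors and secreted inhibitors, 5 were higher and 1 lower at an unadjusted p under 0.05, with a median of 0.06, beside 4.15% higher and 6.13% lower of all genes. With male libraries only, which leaves out APC cKO replicate 1 and a control, 1 was higher and 1 lower and the median was 0.02. Beside Sfrp1 the higher ones were Wnt5a (0.59), Wnt16 (0.79), the Wnt-binding Sfrp4 (0.68) and Kremen1 (0.23), a receptor of Dickkopf inhibitors, and the lower one was the ligand Wnt4 (-0.36), with adjusted p-values from 0.411 to 0.449.

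Among 25 listed feedback and target genes of the pathway, 19 passed the filter. None passed limma's adjusted threshold, and at an unadjusted p under 0.05 there were 4 higher and 0 lower in APC cKOs, beside 4.15% and 6.13% of all genes. Axin2, a scaffold of the destruction complex and a widely used readout of the pathway, was at 8.40, 6.03, 7.65 and 6.61 FPKM in APC cKOs. In APC/β-cat cKOs it was at 5.02, 5.25, 5.70 and 4.52 FPKM. The groups did not overlap, and the difference was 0.47 (standard error 0.11, adjusted p = 0.129). Axin2 controls, at 5.71 ± 0.664 FPKM, lay between the group means.

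Wif1, a secreted Wnt inhibitor, was at 7.12, 1.14, 3.5 and 3.34 FPKM in APC cKOs and at 0.565, 0.940, 0.522 and 0.700 FPKM in APC/β-cat cKOs. The groups did not overlap, APC cKO replicate 2 stood just over the APC/β-cat cKOs, and the difference was 2.08 (standard error 0.49, adjusted p = 0.112). Without that library it was 2.55, with an adjusted p of 0.0274 (range over all alternatives 0.0274 to 0.4). Notum, an enzyme that inactivates Wnt ligands, was at 5.31, 1.11, 2.88 and 1.98 FPKM in APC cKOs and at 0.842 to 1.47 FPKM in APC/β-cat cKOs (difference 1.04, adjusted p = 0.313). Sp5, below the filter, was at 0.676, 0.118, 0.993 and 0.293 FPKM in APC cKOs and between 0 and 0.125 FPKM in APC/β-cat cKOs. In each of these genes APC cKO replicate 2 was the lowest of its group. Replicate 2 also had the lowest summed ependyma and choroid plexus markers of the APC cKOs, at 10.4 FPKM, and the lowest mean of the immature neuron markers, at -0.21 on the log2 scale relative to controls against 0.37 to 1.49 in the others. APC/β-cat cKO replicate 2 had high levels of both lists (37.4 FPKM summed, and 0.83 on the log2 scale) and Wif1 at 0.940 FPKM, the highest of its group but under all APC cKOs. The part of such cells in these differences was not tested further.

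The other target genes named here did not pass the threshold either. Tnfrsf19, a TNF receptor family member, had a difference of 0.17 (adjusted p = 0.342), Lef1 one of 0.31 (adjusted p = 0.668) and Nkd1, a feedback inhibitor, one of 0.13 (adjusted p = 0.849). Ccnd1, which drives entry into the cell cycle, and Myc had differences of -0.28 and -0.14, with adjusted p-values of 0.573 and 0.878. The median of the 19 genes was 0.13, and with male libraries only it was 0.02, with 3 higher and 1 lower. The 20 genes of the destruction complex and its regulators had 0 members at an unadjusted p under 0.05 and a median of 0.04. Of the 20 TCF/LEF factors and cofactors, 1 was lower, the co-repressor Aes (-0.15, adjusted p = 0.449), with a median of 0.09.

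The TCF/LEF core motif was looked for in RefSeq promoters of the GRCm38 build, from 250 bases before to 50 after each start. The letters searched were ATCAAAG and TTCAAAG on both strands, and other forms of the motif were not searched. Of the 30 called genes 18 had a promoter entry, and the letters were found in 0 of them. They were found in 6.84% of the 9892 tested genes with an entry, and in 1 of 11 tested feedback and target genes, Tnfrsf19. With only 18 promoters, a count of 0 cannot be told apart from a share of 6.84%.

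Adhesion and the cytoskeleton are the other settings in which β-cat and APC work. The counts of their genes were near those of all genes (4.15% higher and 6.13% lower at an unadjusted p under 0.05). Of 27 cadherin and catenin genes 1 was higher at an unadjusted p under 0.05, the neuronal cadherin Cdh10 (0.19, adjusted p = 0.365), with a median of 0.06. Of 28 microtubule genes and APC partners 2 were lower, the microtubule-destabilizing Stmn1 (-0.30, adjusted p = 0.329) and the β-tubulin Tubb4a (-0.19, adjusted p = 0.209), whose reads may be shared with other tubulins, and the median was 0.00. Outside these lists Stmn4, another neuronal stathmin, was called, at 230, 228, 213 and 236 FPKM in APC cKOs and at 293, 273, 281 and 325 FPKM in APC/β-cat cKOs. All 4 APC/β-cat cKO values were over the highest control, at 258 FPKM, and the difference was -0.37 (standard error 0.07, adjusted p = 0.0392).

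Of the remaining called genes that were higher in APC cKOs, 2 act at the cell surface or in the matrix. Bmpr1b, a type I receptor of bone morphogenetic proteins, was at 7.33, 7.54, 8.32 and 8.43 FPKM in APC cKOs and at 5.38, 4.90, 6.14 and 5.06 FPKM in APC/β-cat cKOs, with controls at 5.64 ± 0.444 FPKM. All 4 APC cKO libraries were over all APC/β-cat cKO and control libraries, and the difference was 0.55 (standard error 0.09, adjusted p = 0.0134). Fbln1, the matrix protein fibulin 1, was 1.70-fold higher in APC cKOs, with a difference of 0.73 (adjusted p = 0.0245). Pdk4, a kinase that shuts off pyruvate dehydrogenase, had a difference of 0.55 (adjusted p = 0.0469), and Tnnc1, the troponin C of heart and slow muscle, one of 0.64 (adjusted p = 0.0274). Gnl3l, a nucleolar GTPase on the X chromosome, was at 77.7 ± 3.81 FPKM in APC cKOs and 58.7 ± 6.72 FPKM in APC/β-cat cKOs, with controls at 79.5 ± 3.08 FPKM (difference 0.41, adjusted p = 0.0187).

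The circadian output gene Dbp and the clock repressor Bhlhe41 were both lower in APC cKOs. Dbp was at 23.8, 24, 31.5 and 26 FPKM in APC cKOs and at 39.6, 45.6, 34.1 and 51.8 FPKM in APC/β-cat cKOs. The groups did not overlap, APC cKO replicate 3 and APC/β-cat cKO replicate 3 came closest, and the difference was -0.69 (standard error 0.12, adjusted p = 0.0187). Bhlhe41 was at 6.07 to 7.47 FPKM in APC cKOs and at 9.26 to 10.8 FPKM in APC/β-cat cKOs (difference -0.50, standard error 0.08, adjusted p = 0.0136), and its APC cKO values were also under the lowest control, at 8.29 FPKM. The time of day at which tissue was taken is not given in the sources used here.

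Genes of blood vessel cells were among the called genes that were lower in APC cKOs. Ly6a, a surface protein that marks brain endothelium, was at 13.9, 18.1, 16.5 and 17.0 FPKM in APC cKOs and at 22.6, 22.9, 28.2 and 29.6 FPKM in APC/β-cat cKOs. APC cKO values were under the lowest control as well, at 20.4 FPKM, and the difference was -0.65 (standard error 0.095, adjusted p = 0.00794). Car4, a membrane-bound carbonic anhydrase, had a difference of -0.54 (adjusted p = 0.0452) and Ctla2a, an inhibitor of cathepsin-like proteases, one of -0.76 (adjusted p = 0.0439). Reads of Ly6a and Ctla2a can be shared with similar members of their families. Of 18 endothelial, mural and meningeal markers none passed limma's adjusted threshold. At an unadjusted p under 0.05 there were 3 higher and 2 lower, beside 4.15% higher and 6.13% lower of all genes. The higher ones were Slc6a13, a GABA transporter of the meninges (0.89, adjusted p = 0.0919), and the collagens Col1a1 (0.59) and Col1a2 (0.41), and the lower ones the endothelial Ly6c1 (-0.45) and Slco1a4 (-0.48). The summed level of the 18 markers was 141 to 167 FPKM in APC cKOs and 137 to 168 FPKM in APC/β-cat cKOs.

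Of the other called genes that were lower in APC cKOs, 5 had differences between -0.27 and -0.45. Phyh, the peroxisomal enzyme of phytanic acid oxidation, had a difference of -0.27 (adjusted p = 0.0245), Kctd2, of the family of cullin adaptors, one of -0.32 (adjusted p = 0.0245) and Nop10, a part of H/ACA ribonucleoproteins, one of -0.32 (adjusted p = 0.0481). Rbfa, a factor of the mitochondrial ribosome, had one of -0.37 (adjusted p = 0.0469) and Krt12, a keratin, one of -0.45 (adjusted p = 0.0392). 2810002D19Rik was at 1.46 ± 0.370 FPKM in APC cKOs, 2.93 ± 0.399 FPKM in APC/β-cat cKOs and 1.32 ± 0.124 FPKM in controls (difference -0.98, standard error 0.16, adjusted p = 0.0187).

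Myelin genes had lower mean levels in APC cKOs than in APC/β-cat cKOs, short of the adjusted threshold. Of 17 tested markers of oligodendrocytes and their precursors, 16 had a negative difference, 10 were lower at an unadjusted p under 0.05 (beside 6.13% of all genes) and 1, the precursor marker Pdgfra (0.24), was higher. The median was -0.38, and the groups did not overlap in 10 of the 17 (beside 5.49% of all genes). With male libraries only, 9 were lower and the median was -0.32. The smallest adjusted p was 0.056, and 0 were called by limma.

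Mag, an adhesion protein of the myelin sheath, was at 22.7, 25.6, 23.5 and 24 FPKM in APC cKOs and at 33.5, 34.7, 30.1 and 41 FPKM in APC/β-cat cKOs. Mbp, a main protein of compact myelin, was at 238, 284, 289 and 223 FPKM in APC cKOs and at 364, 389, 356 and 427 FPKM in APC/β-cat cKOs. In both genes every APC cKO library was under every APC/β-cat cKO library. Controls lay between the group means, at 28.5 FPKM for Mag and 335 ± 51 FPKM for Mbp, and overlapped the APC/β-cat cKOs in both. For Mbp, but not for Mag, controls overlapped the APC cKOs as well. The difference was -0.53 for Mag (adjusted p = 0.056) and -0.58 for Mbp (adjusted p = 0.0609). Mag passed the threshold without APC/β-cat cKO replicate 3 (adjusted p = 0.0499) or β-cat cOE replicates 2 or 3 (0.0265 and 0.0497), and Mbp without β-cat cOE replicate 3 (0.0497) or control replicate 4 (0.0377). Over all alternatives the adjusted p ranged from 0.0129 to 0.187 for Mag and from 7.21e-04 to 0.205 for Mbp. Mobp (-0.52), Cldn11 (-0.44), Mal (-0.47), Mog (-0.58), Cnp (-0.35) and Ermn (-0.57), all made by myelinating cells, had adjusted p-values from 0.112 to 0.234. The summed level of the list was 787 to 924 FPKM in APC cKOs, 1107 to 1250 FPKM in APC/β-cat cKOs and 870 to 1294 FPKM in controls. Mobp lies 0.784 Mb from Ctnnb1, in the window where the loss of β-cat and the DNA linked to the alleles cannot be told apart.

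Microglial markers also leaned lower in APC cKOs. Of 15 tested, 14 had a negative difference, 5 were lower and 0 higher at an unadjusted p under 0.05, 0 were called by limma and the median was -0.20, beside 6.13% lower of all genes. With male libraries only, 2 were lower and the median was -0.22. The receptor Trem2 (-0.40), the complement gene C1qb (-0.36), Itgam (-0.34) and Csf1r (-0.19), which encodes the receptor that microglia need to survive, had adjusted p-values from 0.332 to 0.465. Of 15 astrocyte markers 1 was higher, the gap junction gene Gja1 (0.20), and 1 lower, the calcium-binding S100b (-0.20), with a median of 0.03.

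Pvalb, the calcium-binding protein of fast-spiking interneurons, was at 25.6, 54.4, 39.4 and 33.2 FPKM in APC cKOs and at 63.2, 50.7, 54.1 and 66.1 FPKM in APC/β-cat cKOs. APC cKO replicate 2 lay within the APC/β-cat cKO range, and the other 3 were under it. The difference was -0.66 (standard error 0.19, limma adjusted p = 0.209; exact permutation p = 0.0857). Without APC cKO replicate 2 it was -0.85 with an adjusted p of 0.0499, and over all alternatives the adjusted p ranged from 0.0499 to 0.55. Pvalb in controls was 64.8 ± 3.20 FPKM. The study also measured Pvalb RNA by qPCR and its protein by immunoblot in this tissue. Relative to controls, it reports less of each where β-cat was raised, that is in APC cKOs as well as β-cat cOEs. For APC/β-cat cKOs it describes each as normal. It does not say whether the same animals gave the libraries. Of 14 tested markers of parvalbumin interneurons, 4 were lower and 0 higher at an unadjusted p under 0.05, 0 were called by limma and the median was -0.17, beside 6.13% lower of all genes. With male libraries only, 2 were lower and the median was -0.08. Beside Pvalb these were the potassium channel genes Kcns3 (-0.44) and Kcnc1 (-0.19) and the presynaptic Cplx1 (-0.16), with adjusted p-values from 0.348 to 0.449.

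Markers of other GABA neurons were split. Of 20, 16 had a positive difference, 3 were higher and 4 lower at an unadjusted p under 0.05 and 0 were called by limma, with a median of 0.20. The shares over all genes were 4.15% higher and 6.13% lower. With male libraries only, 3 were higher and 1 lower and the median was 0.12. The neuropeptide genes Npy (-0.36), Sst (-0.58), Crhbp (-0.34) and Cck (-0.17) were the lower ones, and Tac2 (0.50), Adarb2 (0.68) and the GABA-making enzyme Gad2 (0.37) the higher ones. Cck lies 0.546 Mb from Ctnnb1, in the window of linked DNA. Npy was at 195, 211, 192 and 205 FPKM in APC cKOs and at 249, 250, 269 and 261 FPKM in APC/β-cat cKOs. Those groups did not overlap, but control values from 204 to 318 FPKM spanned both, and the adjusted p was 0.274.

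The study's text names 10 genes linked to autism, from genes altered in both lines with raised β-cat but not in APC/β-cat cKOs. It chose them on these libraries. Their direction against controls, or between the groups compared here, is therefore not independent evidence. Between APC cKOs and APC/β-cat cKOs none of the 9 that were tested passed limma's adjusted threshold. At an unadjusted p under 0.05 there were 2 higher and 1 lower, beside 4.15% higher and 6.13% lower of all genes. The median was 0.35. With male libraries only, 1 was higher and 1 lower and the median was 0.18. Beside Pvalb, the lower one, these were the complement gene C4b (0.65, adjusted p = 0.475), whose reads may be shared with C4a, and the semaphorin receptor Nrp2 (0.35, adjusted p = 0.371). C4b was at 9.21, 3.27, 6.77 and 3.54 FPKM in APC cKOs and at 2.74, 4.59, 3.38 and 2.72 FPKM in APC/β-cat cKOs, so 2 APC cKO libraries stood apart and the other 2 lay within the range of the other group. The differences were 0.61 for Dcx, 0.38 for Pax6, 0.17 for Kirrel3, 0.06 for Fam19a2 and -0.04 for Camk4, with adjusted p-values from 0.546 to 0.937. Dcx, a microtubule protein of migrating neurons, and Pax6 were highest in APC cKO replicate 1, at 14.6 and 13.3 FPKM. The median of the immature neuron markers was 0.54 (0.27 without APC cKO replicate 1), with 1 of 15 at an unadjusted p under 0.05 (Cd24a, 0.995, adjusted p = 0.443), and their mean was likewise highest in replicate 1. Crhr2, below the filter, was at 0.283 to 0.923 FPKM in APC cKOs and 0.245 to 0.361 FPKM in APC/β-cat cKOs.

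Among genes of the GABA synapse, Gabra2, the α2 subunit of the GABA-A receptor, came close to the threshold. It was at 70.9, 63.9, 62.1 and 69.3 FPKM in APC cKOs and at 48.4, 52.3, 45.8 and 56.9 FPKM in APC/β-cat cKOs. The groups did not overlap, controls were at 65.5 ± 6.79 FPKM, and the difference was 0.39 (standard error 0.08, adjusted p = 0.059; 0.0394 without control replicate 4 and 0.0333 with quantile normalization, and up to 0.32 in other alternatives). Gabrd, the δ subunit found outside synapses, differed by -0.23 (adjusted p = 0.365). These were the 2 of 21 genes at an unadjusted p under 0.05, and the median was -0.01. Of 33 glutamate receptor and postsynaptic scaffold genes 1 was higher, the kainate receptor Grik2 (0.17), and 1 lower, the scaffold Dlgap4 (-0.10), with a median of 0.02. Of all genes, 4.15% were higher and 6.13% lower at an unadjusted p under 0.05.

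Axon guidance genes included 5 of 42 that were higher and 1 that was lower at an unadjusted p under 0.05, with a median of 0.07 and 0 called by limma. Of all genes, 4.15% were higher and 6.13% lower at that threshold. The semaphorins Sema3e (0.40), Sema5a (0.53) and Sema6d (0.30), the Slit receptor Robo1 (0.32) and the ephrin receptor Epha5 (0.23) were the higher ones. Plxnd1 (-0.29), the receptor of Sema3e, was the lower one. Sema3e was at 7.24, 6.13, 6.31 and 5.61 FPKM in APC cKOs and at 5.47, 4.49, 5.23 and 3.91 FPKM in APC/β-cat cKOs. These groups did not overlap by a small margin, and the adjusted p was 0.172, the smallest of the list.

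Markers of cortical excitatory neurons, the cells in which the Cre acts, were split. Of 20, 3 were higher and 3 lower at an unadjusted p under 0.05, with a median of 0.01 and 0 called by limma. The shares over all genes were 4.15% higher and 6.13% lower. The deep-layer genes Bcl11b (0.31), Etv1 (0.33) and Ctgf (0.41) were the higher ones. The upper-layer genes Cux1 (-0.16), Cux2 (-0.31) and Rasgrf2 (-0.25) were the lower ones. Other layer genes of the list, among them Fezf2, Tbr1, Foxp2 and Tle4, did not reach that threshold, and a difference by layer was not tested. Bcl11b, which striatal neurons also express, was at 12.7, 12.8, 16.2 and 12.9 FPKM in APC cKOs and at 10.3 to 11.4 FPKM in APC/β-cat cKOs. Its highest library, APC cKO replicate 3, was also the highest in summed striatal markers, at 689 FPKM. Among 24 activity-regulated genes 1 was higher, the transcription factor Egr4 (0.44, adjusted p = 0.48), with a median of 0.19.

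The striatal, ependyma and choroid plexus markers, with large medians, varied several-fold within both groups. All 15 striatal markers had a positive difference, with a median of 0.50 and 0 at an unadjusted p under 0.05. The median of the 11 tested ependyma and choroid plexus markers was 0.66, with 1 at an unadjusted p under 0.05 (Kl, 0.59, adjusted p = 0.364). The median of the 4 tested blood markers was 0.21. The summed level of 6 blood markers, tested or not, was 64.9 to 151 FPKM in APC cKOs and 54.01 to 91.6 FPKM in APC/β-cat cKOs. Tmem212, an ependymal gene, was listed at 0 in APC cKO replicate 2 and in APC/β-cat cKO replicates 1 and 3, and reached 6.51 FPKM in APC cKO replicate 3. The summed ependyma and choroid plexus level overlapped between the groups, with 10.4 to 57.5 FPKM in APC cKOs and 10.5 to 37.4 FPKM in APC/β-cat cKOs, against 14.1 to 17.8 FPKM in controls.

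**Figure D4:**
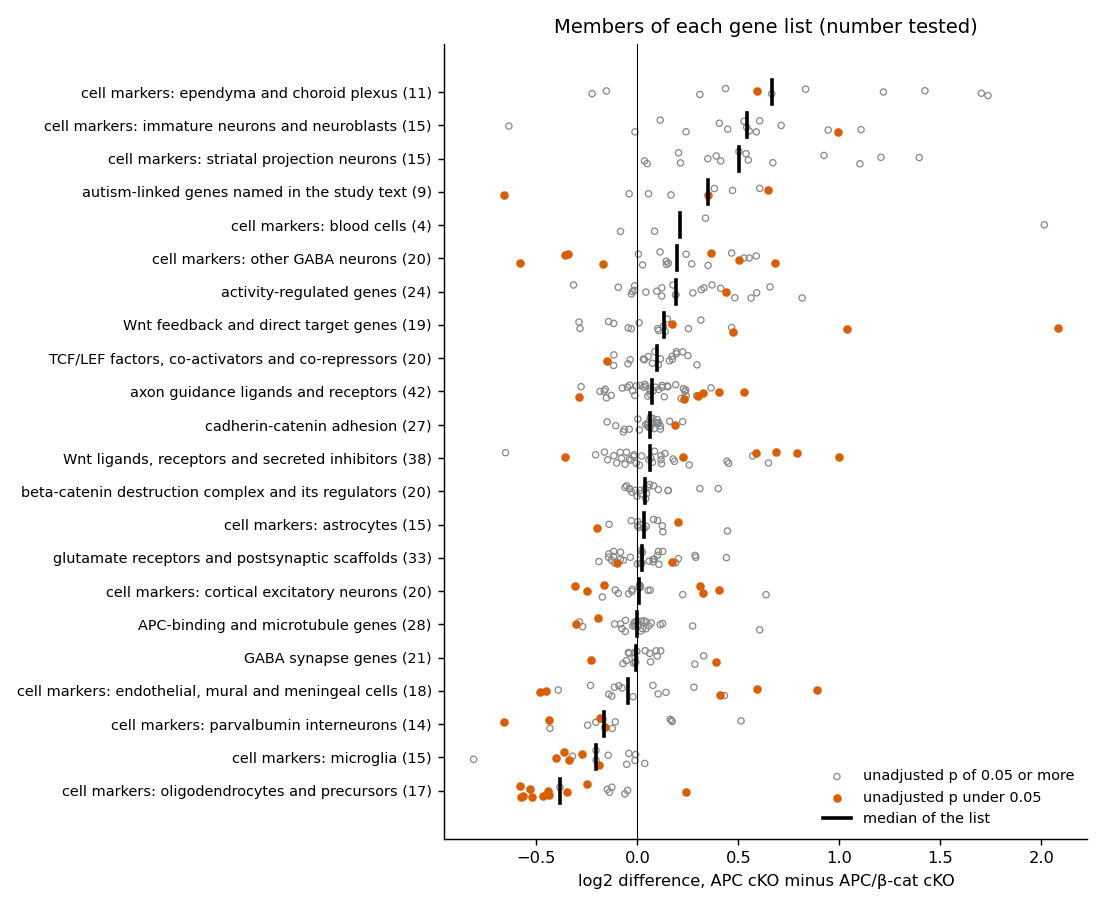
Log2 difference, APC cKO minus APC/β-cat cKO, of each tested member of 22 gene lists, with the median of each list as a black bar and members at an unadjusted p under 0.05 in orange. Oligodendrocyte markers have the lowest median (-0.38) and ependyma and choroid plexus markers the highest (0.66), the latter with a wide scatter.

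Just outside the threshold, the genes with the smallest p-values that have not yet been named were Ccl28 and Gins4 among those higher in APC cKOs and Il33, Herpud1 and Rnase4 among those lower. Il33, an alarmin cytokine that glial cells make in the brain, was at 6.53, 9.74, 9.43 and 5.86 FPKM in APC cKOs and at 14.8, 13.7, 14.1 and 16.5 FPKM in APC/β-cat cKOs. The groups did not overlap, controls were at 14.4 ± 3.22 FPKM, and the difference was -0.93 (adjusted p = 0.0651). Ccl28, a chemokine, had a difference of 2.24 at low levels, with 1.90 ± 0.610 FPKM in APC cKOs and 0.425 ± 0.414 FPKM in APC/β-cat cKOs (adjusted p = 0.0679). Gins4, of the DNA replication complex GINS, had a difference of 0.39, Herpud1, a gene of the endoplasmic reticulum stress response, one of -0.31 and Rnase4, a secreted ribonuclease, one of -0.40, each with an adjusted p of 0.0679. Gins4 lies on chromosome 8 from 23226610 to 23237668, near the called Sfrp1. Leaving out 1 library put some of these genes past the threshold: Ccl28 without APC/β-cat cKO replicate 4 (adjusted p = 0.0174), Gins4 without APC/β-cat cKO replicate 1 (0.00509) and Herpud1 without β-cat cOE replicate 2 (0.0265). Il33 passed it without APC cKO replicate 2 (0.0495), β-cat cOE replicate 2 (0.0414) or control replicate 1 (0.0354). Other alternatives raised the adjusted p of these 4 genes to between 0.205 and 0.312.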

How the data were processed

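The authors sequenced prefrontal cortex RNA (TruSeq stranded mRNA), mapped the reads to mm10 with TopHat2 2.0.10 and made FPKM values with Cufflinks. Cuffdiff 2.1.1 is also named in the submitters' processing notes, and whether counting used strand is not given in the sources used here. The deposited table holds 1 log2 value per gene and library, 23284 genes and 16 value columns. The base and offset were inferred: read as log2(FPKM + 1), FPKM times median transcript length in kilobases summed to 1030885 to 1096927 per library, and natural logs would give 8612844 to 9386658. Depth is therefore unknown.

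Values were turned back into FPKM. A mean of 0.5 FPKM or more over the 16 libraries was required, which left 13978 genes, tested on log2(FPKM + 0.1) with limma 3.58.1 in R 4.3.3 (lmFit, contrasts.fit, eBayes with trend), in 1 model of the 4 genotypes with 12 residual degrees of freedom. A gene was called at an adjusted p (Benjamini-Hochberg) under 0.05, and differences understate changes of low genes. Exact permutation tests, two-sided, were used for single values. Positions are those listed in the table. Python 3.11.15 was used for tables and plots, and the fit was tested on simulated data.

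Genes named are Apc, Ctnnb1, the called genes, the 10 genes in the study's text, up to 4 members per list with the smallest unadjusted p under 0.05, 6 Wnt targets and the 5 genes nearest the threshold in each direction, plus further list members and genes said to be picked after their values were seen. The comparison and the lists were chosen with earlier results of these data known. The values of 2 called genes and 2 list members are not reported here. Same-numbered APC cKO and APC/β-cat cKO libraries did not all deviate together, so the fit has no replicate block. Alternatives were other pseudocounts, filters and scalings, no trend, sex as a covariate, replicate blocks, only the 2 groups, other thresholds and each library left out. Male libraries only and a block by column label were added after seeing the data.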

Additional observations from a re-analysis of the deposited data

Results flagged for a closer look

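In 8 of 200 sets of 4 values, 1 library was remote from the other 3, with a gap to its neighbour, as a share of the whole range, over Dixon's 95% critical value, and chance alone gives about 10. In APC cKOs, replicate 3 was the highest for Bcl11b (ratio 0.922), replicate 1 was the highest for Nme6 (0.865) and the lowest for Kcns3 (0.943), and replicate 4 was the lowest for Gins4 (0.831). In APC/β-cat cKOs, replicate 1 was the highest for Gins4 (0.974), Itgam (0.861) and Kcns3 (0.921), and replicate 2 was the lowest for Rnase4 (0.983). Kcns3 was thus at 1.16 FPKM in APC cKO replicate 1 and 2.06 to 2.11 FPKM in the other 3, and at 3.003 FPKM in APC/β-cat cKO replicate 1 and 2.28 to 2.34 FPKM in the others. Gins4 was at 16.3 FPKM in APC/β-cat cKO replicate 1 and 12.8 to 12.9 FPKM in the other 3.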

How the results depend on the processing

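The 30 genes (13 higher, 17 lower in APC cKOs) became 6 (3 and 3) with only the 2 groups compared, 16 (8 and 8) without a trend, 14 (8 and 6) with sex as a covariate and 17 (8 and 9) with male libraries only. At an adjusted p under 0.01 there were 8 (4 and 4), and 1437 (580 and 857) at an unadjusted p under 0.05. The lower genes were 11 where a mean of 2 FPKM was required and 10 with quantile normalization. With the replicate block by title number there were 15 (6 and 9), of which 10 were among the 30, and with a block by column label 31. The block by title number put Mag (adjusted p = 0.0129) and Mbp (adjusted p = 0.00487) past limma's threshold. The deviations of same-numbered APC cKO and APC/β-cat cKO libraries correlated at -0.185, -0.136 and 0.165, which gives no pairing of the groups compared, while those of APC cKOs and β-cat cOEs correlated at 0.322, 0.197 and 0.111. Across the fits that left out 1 library, the counts were 10 to 32 in all, 5 to 14 higher and 5 to 19 lower. Near Ctnnb1, 3 genes in place of 6 were called with only the 2 groups and with the title-number block. Apc changed sign, to -0.0112, with male libraries only or without APC cKO replicate 1 (range -0.0112 to 0.36 with 1 library left out), and Pvalb passed the threshold without APC cKO replicate 2 (range -0.849 to -0.487). The oligodendrocyte median of -0.384 was -0.317 with male libraries, -0.448 with the title-number block and -0.326 with sex as a covariate, and -0.453 to -0.301 with 1 library left out. Among uncalled genes that changed sign, with male libraries only Camk4 was at 0.0588, Myc at 0.0659 and Nkd1 at -0.0528, and with the title-number block Fam19a2 was at -0.0672. With 1 library left out, Camk4 ranged from -0.152 to 0.0641, Fam19a2 from -0.0365 to 0.176, Myc from -0.369 to 0.0771 and Nkd1 from -0.0528 to 0.339. For the called genes, 536 of 835 values under the alternatives stayed past the threshold, 299 fell short of it and 0 changed sign. The cause was not tested, apart from fewer genes or libraries. With 4 libraries per group and unknown depth, small differences and low genes are beyond these data.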

Other observations

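Other clock genes were read after Dbp and Bhlhe41 had been seen among the called genes. Of 15 further clock genes tested, 3 were lower and 1 higher in APC cKOs at an unadjusted p under 0.05, and 0 passed limma's adjusted threshold. The shares over all genes were 6.13% lower and 4.15% higher. The lower ones were Hlf (-0.28), a relative of Dbp, and the nuclear receptors Nr1d1 (-0.27) and Nr1d2 (-0.19), which repress Arntl. Arntl, the activator partner of Clock, was the higher one (0.31, adjusted p = 0.146). The period genes Per1 (0.10), Per2 (0.00) and Per3 (-0.16) had adjusted p-values from 0.569 to 0.998. No explanation of these values was tested.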
